A study of Triticum aestivum with 14 samples.

Results

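WM4 (TraesCS4D02G245200), WM27A (TraesCS1B02G273300) and TaAGL31 (TraesCS5D02G118200) are MADS-box transcription factor genes of bread wheat (Triticum aestivum), named as in the deposited table. These 3 genes of the 100591 in the table were chosen by their FPKM values in these same libraries, for contrasting patterns over florets and floral organs. FPKM are fragments scaled to the length of the gene model and to the size of the library. Their levels are therefore given as a description, with no test. Tests are given only for other MADS-box genes.

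MADS-box proteins bind DNA through a conserved MADS domain. Those of the MIKC type carry further domains through which they pair with each other and form larger complexes. In flowering plants different combinations of MIKC-type proteins specify the organs of the flower, such as stamens, carpels and ovules, and others act earlier, in the change to flowering. A wheat spikelet bears several florets in succession along its axis, and each fertile floret encloses anthers and an ovary between a lemma and a palea. The florets farther along the axis often stop developing before they flower.

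Transcripts were measured by bulk RNA-seq in 14 libraries from untreated wheat, all taken from the central spikelet 21 days past terminal spikelet stage. The groups were F5 (n = 3), F1 (n = 3), Anther (n = 3), Ovary (n = 3) and Lemma (n = 2). The stated design sets fertile florets against abortive ones, and compares 3 organs of a fertile floret, without saying which of F5 and F1 is fertile. Every library carries the same label N50, which is not explained, and nothing says that the replicates of a group came from separate plants. Total counts per library ran from 75016595 to 105526441.

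Among these libraries F1 replicate 1 stood apart. Its log2 scaled counts correlated with those of the other F1 libraries at r of 0.920 and 0.931, against 0.955 to 0.989 for all other pairs within groups. The 90 genes described as chlorophyll a-b binding summed to 15034 FPKM in it, against 9089 and 6152 FPKM in the other F1 libraries. The same sum was 13404 to 15344 FPKM in F5, 464 to 683 FPKM in Anther, 370 to 427 FPKM in Ovary and 11348 to 13750 FPKM in Lemma. The 9 genes with the ontology term for pollen sperm cell differentiation summed to 336 to 372 FPKM in Anther, 5.44 to 9.95 FPKM in F5, 4.98 to 34.0 FPKM in F1, 5.27 to 5.46 FPKM in Ovary and 0.808 to 0.928 FPKM in Lemma. The 6 genes with the term for carpel development summed to 21.1 to 22.4 FPKM in F5, 54.9 to 64.2 FPKM in F1, 11.3 to 13.5 FPKM in Anther, 96.9 to 119 FPKM in Ovary and 16.1 to 19.5 FPKM in Lemma. The Anther and Ovary libraries thus ranked highest for the list that fits their label.

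The 3 genes lie on different chromosomes. WM4 spans 10615 bp of chromosome 4D, from 410402571 to 410413185 on the plus strand. WM27A spans 4131 bp of chromosome 1B, from 480437886 to 480442016 on the minus strand. TaAGL31 spans 5550 bp of chromosome 5D, from 156574094 to 156579643 on the minus strand. These are the positions in the deposited table, whose genome build is not given in the sources used here. The table lists 1 transcript each for WM4 and WM27A and 2 for TaAGL31. WM4 and WM27A are described as MIKC-type factors and carry identical ontology terms, a set that 47 genes share. TaAGL31 carries in addition the terms for ovule development and for shaping of the indeterminate inflorescence. Bread wheat has 3 related subgenomes, A, B and D, and how reads that match several copies of a gene were counted is not stated. The level of a single copy is uncertain to that extent.

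WM4 was highest in F5 and lower by several-fold in every other group. Its level was 49.7, 48.3 and 49.7 FPKM in the F5 libraries, against 5.32, 4.16 and 3.94 FPKM in the F1 libraries. In the organs it was 4.32, 5.32 and 3.16 FPKM in Anther, 9.35, 12.5 and 15.6 FPKM in Ovary, and 7.93 and 7.20 FPKM in Lemma. Every F5 library was far above the highest library outside F5, an Ovary library, and the F5 libraries lay close together.

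The F5 mean of WM4 was 49.2 ± 0.836 FPKM and the F1 mean 4.47 ± 0.740 FPKM (SD, n = 3 each), a ratio of 11.0. Ratios between single F5 and F1 libraries ran from 9.08 to 12.6. Without F1 replicate 1 the ratio was 12.2. By mean level WM4 stood at rank 1562 of 100591 genes in F5 and at rank 26010 in F1. Its coefficient of variation in F5 by FPKM was 1.70%, against a median of 14.2% over the 44059 genes with a mean of at least 1 FPKM there. Of those genes, 1.26% varied less than WM4.

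The order of WM4 from high to low by FPKM was F5, Ovary, Lemma, F1 and Anther. F5 was 3.94-fold above Ovary (12.5 ± 3.10 FPKM, n = 3), 6.51-fold above Lemma (7.57 ± 0.513 FPKM, n = 2) and 11.5-fold above Anther (4.27 ± 1.08 FPKM, n = 3). The F1 and Anther libraries overlapped, and no other neighbours in that order did on the FPKM scale. Anther was below Lemma at a ratio of 0.564 and below Ovary at a ratio of 0.342. Ovary stood above Lemma at a ratio of 1.65 by FPKM, but at 1.11, with overlapping libraries, by CPM (counts scaled to library size, here after correction by TMM, the trimmed mean of M-values).

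That difference follows the scaling of the whole table. By FPKM the median log2 ratio of Ovary over Lemma was 0.57 over 34490 genes, and by TMM-scaled CPM it was 0.01. The log2 ratio of WM4 was 0.72 by FPKM and 0.15 by CPM, so it lay near the median gene on both scales. For F5 over F1 the all-gene median was -0.15 by FPKM and 0.13 by CPM, and the ratio of WM4 was 13.4 by CPM. The F5 libraries of WM4 were at 76.4, 72.3 and 76.7 CPM, a wider relative spread than by FPKM. For Anther over Lemma the change of scale moved the all-gene median by -0.19, and for Anther over Ovary by 0.37. None of these shifts changed the direction of a ratio given here for the 3 genes in the 4 comparisons of the study.

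WM27A was found in the ovary and in F1, and hardly elsewhere. The Ovary libraries had 8.62, 8.09 and 8.33 FPKM. The F5 libraries had 0.0627, 0.160 and 0.0566 FPKM, which rest on 10, 25 and 9 counts, against 6.36, 4.73 and 5.24 FPKM in the F1 libraries. All 3 Anther and both Lemma libraries were at 0 counts. The Ovary, F1 and F5 libraries did not overlap, and F5 held only a trace.

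The mean of WM27A was 0.0930 ± 0.0579 FPKM in F5 and 5.44 ± 0.835 FPKM in F1 (SD, n = 3 each), so that F5 was lower by 5.87 on the log2 scale. F1 was 58.5-fold above F5, and 53.6-fold above it without F1 replicate 1. Without F5 replicate 2, which holds 25 of the 44 counts in F5, it was 91.3-fold above. The F1 mean was 0.652 times the Ovary mean of 8.35 ± 0.264 FPKM (n = 3).

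For the groups at 0, folds are bounds that take 3 counts over the whole group as the most that a count of 0 allows. That limit was 0.0120 CPM in Anther and 0.0151 CPM in Lemma, and it covers counting error only. Ovary was at least 823-fold higher than Lemma, and Anther at least 1039-fold lower than Ovary. F1 was at least 685-fold higher than Anther and at least 542-fold higher than Lemma.

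TaAGL31 had the same 2 high groups as WM27A, with a measurable level in every library. It stood at 29.0, 27.6 and 27.3 FPKM in Ovary. It was at 1.82, 1.504 and 1.06 FPKM in F5, against 15.5, 16.0 and 17.9 FPKM in F1. The other organs had 1.83, 3.78 and 2.92 FPKM in Anther, and 0.919 and 1.85 FPKM in Lemma. Every Ovary library was above every F1 library, and every F1 library was above every library of F5, Anther and Lemma.

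The F5 mean of TaAGL31 was 1.46 ± 0.383 FPKM and the F1 mean 16.5 ± 1.30 FPKM (SD, n = 3 each). F1 was 11.3-fold above F5, and 11.6-fold above it without F1 replicate 1. The Ovary mean of 27.98 ± 0.889 FPKM (n = 3) was 20.2-fold above the Lemma mean of 1.38 ± 0.657 FPKM (n = 2), or 13.6-fold by TMM-scaled CPM. The Lemma libraries differed, and the fold by FPKM was 15.1 without Lemma replicate 1 and 30.5 without Lemma replicate 3. Anther, at 2.85 ± 0.977 FPKM (n = 3), had 0.102 times the Ovary level. Anther was 2.06-fold above Lemma, or 3.10-fold without Lemma replicate 3, but these libraries overlapped. At the low end F5 and Lemma overlapped on both scales, and F5 and Anther overlapped by CPM but not by FPKM.

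TaAGL31 ranked 3878 of 100591 genes in Ovary and 39516 in F5. Its spread was small where it was high: the coefficient of variation by FPKM was 3.18% in Ovary and 7.87% in F1. In the low groups it was 26.3% in F5, 34.3% in Anther and 47.5% in Lemma. WM27A likewise varied by 3.16% in Ovary, against a median of 13.0% over 45130 genes with at least 1 FPKM there. By TMM-scaled CPM the Ovary libraries ran from 35.9 to 40.0 for TaAGL31 and from 10.1 to 11.1 for WM27A, a wider relative spread.

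**Figure D1:**
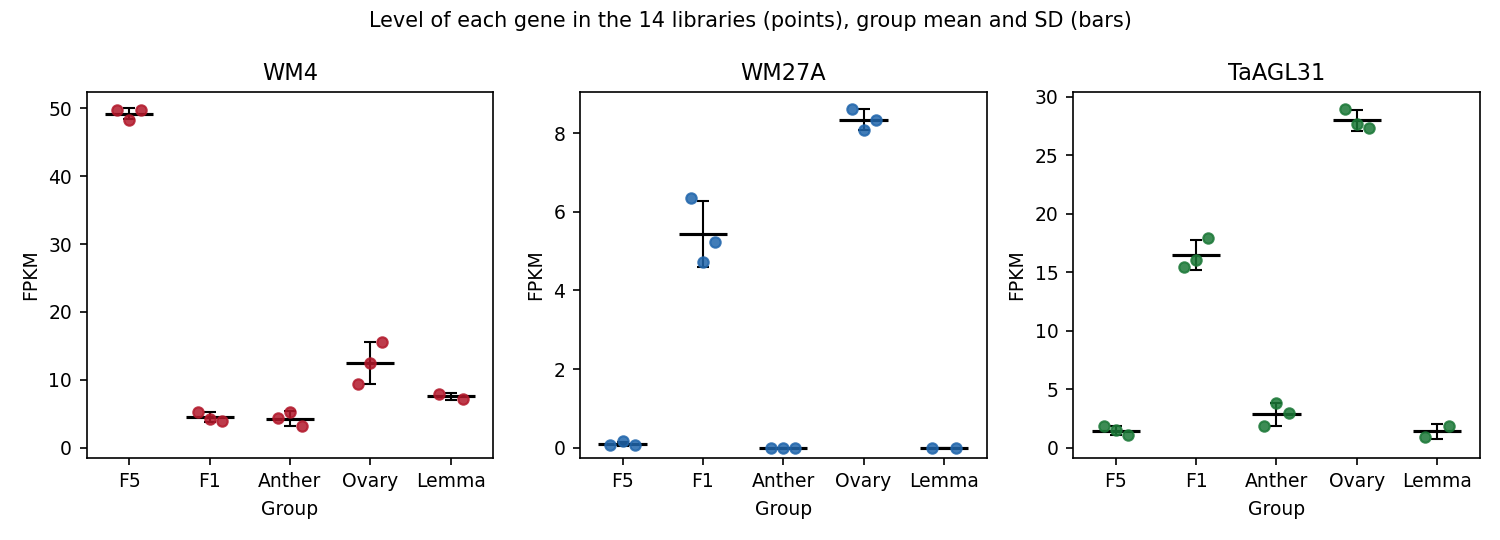
Level in FPKM (vertical axis, linear, a separate scale for each gene) of WM4, WM27A and TaAGL31 in the 14 libraries (points) by group, with the group mean and SD (black bars, n = 3, and 2 for Lemma). WM4 stood at 48.3 to 49.7 FPKM in F5 and at no more than 15.6 FPKM elsewhere, while WM27A and TaAGL31 were highest in Ovary, next in F1 and low in F5, Anther and Lemma.

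WM27A and TaAGL31 moved together and WM4 did not move with them. Over the 14 libraries the Pearson correlation of log2(FPKM + 1) was 0.973 for WM27A with TaAGL31, -0.20 for WM4 with WM27A and -0.31 for WM4 with TaAGL31. The libraries fall into 5 groups, so these values mostly describe the group means. WM27A had 33.3 ± 6.82% of the TaAGL31 level in F1 and 29.8 ± 0.613% in Ovary (SD, n = 3 each). It had 6.48 ± 3.71% in F5 (n = 3) and 0 in Anther and Lemma. The proportion was thus similar in the groups where both were high, and lower in F5, Anther and Lemma. In F5, WM4 exceeded TaAGL31 by 35.5 ± 10.3-fold, whereas in F1 it was 0.274 ± 0.0635 times TaAGL31 (n = 3 each).

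The summed carpel development genes ranked Ovary, F1, F5, Lemma and Anther, and WM27A and TaAGL31 had the same 2 leading groups. Their part in the levels of WM27A and TaAGL31 was not tested. In bulk samples, fewer cells of a type and less RNA per cell cannot be told apart. The chlorophyll a-b binding sum was high in F5, in Lemma and in F1 replicate 1, and low in Anther and Ovary. WM4 was at 48.3 to 49.7 FPKM in F5, 7.20 to 7.93 FPKM in Lemma, 3.16 to 5.32 FPKM in Anther and 9.35 to 15.6 FPKM in Ovary. In F1 replicates 1, 2 and 3 the sum was 15034, 9089 and 6152 FPKM, and WM4 was at 5.32, 4.16 and 3.94 FPKM. The part of green tissue in the level of WM4 was not tested.

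The 3 genes were next set beside other MADS-box genes. A text rule found 25, by the word MADS in name or description or by a MADS-box stem in the name. It did not match AGLG1 (TraesCS5A02G391800) and Short vegetative phase (TraesCS6A02G313800), which are described genes of the wider set given below. In F5 against F1, 2 of these 25 were called higher, 10 were called lower and 13 were not called, by edgeR's quasi-likelihood test. A call needed an adjusted p (Benjamini-Hochberg) below 0.05 together with a 2-fold change or more. Of all 70221 genes tested, 24.1% were called, 10.4% higher and 13.7% lower. The median log2 fold change was -0.93 over the 25 genes, against -0.05 over all genes. Without F1 replicate 1 the counts were 3 higher and 10 lower, and without F1 replicate 3 they were 0 higher and 9 lower. With limma on log2(FPKM + 1) they were 0 higher and 12 lower.

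WM4 had the highest F5 over F1 ratio of the 28 MADS-box genes, the 3 described here included. The next ratio was 4.24, of a type I MADS-box gene (TraesCS3D02G428000) at 0.735 FPKM in F5 and 0.173 FPKM in F1. That gene and TaAGL29 (TraesCS2A02G261200) were the 2 called higher; the type I gene falls outside the naming rule and was chosen after its values were seen. TaAGL29 had 34.0 ± 2.92 FPKM in F5 and 20.1 ± 3.39 FPKM in F1, with a log2 fold change of 1.02 ± 0.18 (SE, edgeR adjusted p = 0.0071). That fold change lay just above the 2-fold limit, and the ratio of its mean FPKM, at 1.69, lay below it. WM27A had the lowest ratio of the 28, and TaAGL31 ranked 22. The 3 genes were chosen by such values, so their ranks are a description.

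The 5 other MADS-box genes that fell furthest in F5 were at 4.91 to 81.3 FPKM in F1. The APETALA3-like gene TraesCS7D02G380300, of a class needed for stamens, had 4.39 ± 0.951 FPKM in F5 and 55.3 ± 22.3 FPKM in F1, with a log2 fold change of -3.38 ± 0.33 (edgeR adjusted p = 0.0010). WM13 (TraesCS7B02G286600) had 3.10 ± 1.00 FPKM in F5 and 37.8 ± 17.0 FPKM in F1. TaAGL18 (TraesCS6D02G014600) had 0.302 ± 0.253 FPKM in F5 and 4.91 ± 2.18 FPKM in F1. The MADS box genes TraesCS5A02G286800 and TraesCS5D02G294500 had 6.06 and 6.29 FPKM in F5, against 81.3 and 77.7 FPKM in F1. The log2 fold changes of these 4 ran from -3.74 to -3.33, with edgeR adjusted p of 0.0061 or less. By TMM-scaled CPM the log2 ratio of TaAGL31 was -3.20 and that of WM27A was -5.54. These are ratios of means scaled over all 14 libraries, while the test scaled the F5 and F1 libraries by themselves. They can be set beside the fold changes above only roughly.

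**Figure D2:**
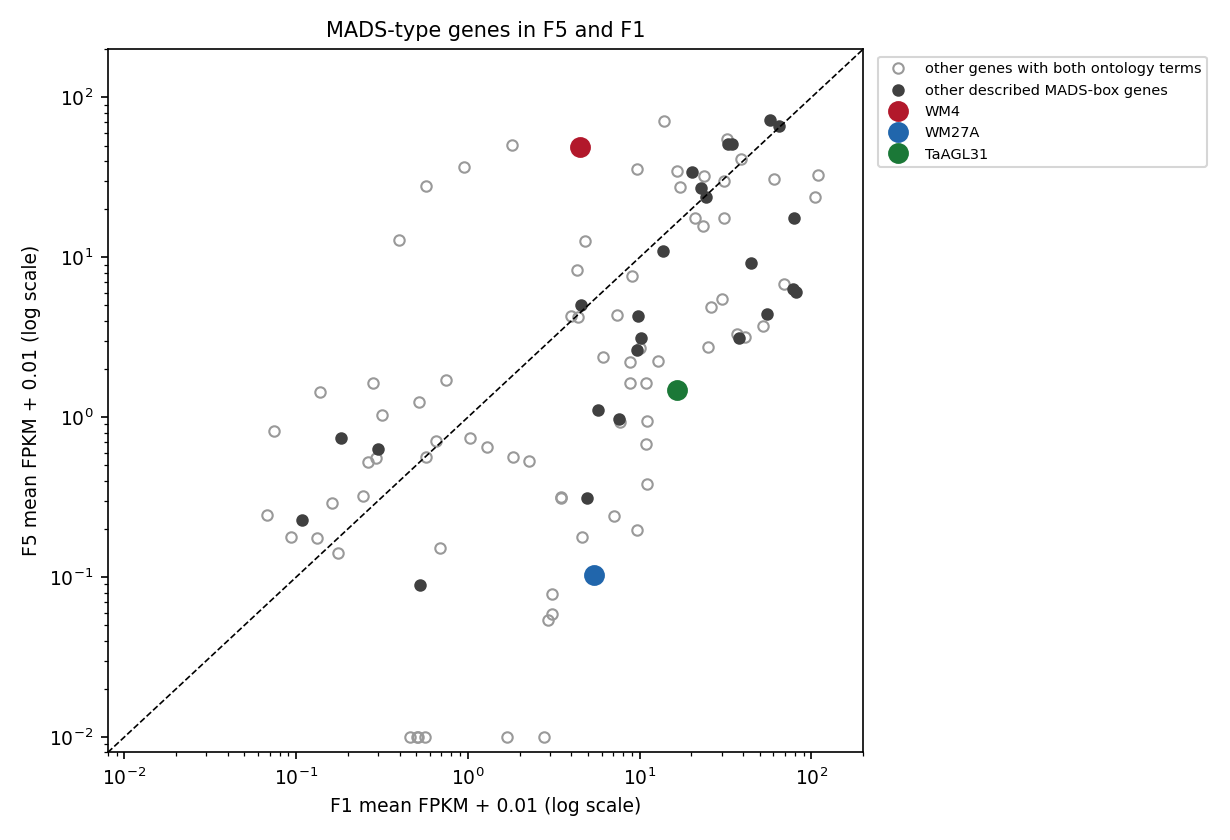
Mean FPKM in F5 (vertical) against mean FPKM in F1 (horizontal), both on log axes with 0.01 added, for WM4, WM27A, TaAGL31 (large points), other described MADS-box genes (filled) and other genes with both ontology terms (open) that were tested. The dashed line marks equal levels: WM4 lies above it at 49.2 and 4.47 FPKM, and WM27A and TaAGL31 lie below it at 0.0930 and 5.44 FPKM and at 1.46 and 16.5 FPKM in F5 and F1.

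WM4 took a share of the summed level of the 28 genes in F5 that it had nowhere else. MADS-type genes not found by name or description are left out of that sum, so these are not shares of the whole family. Of the summed FPKM of the 28 genes, WM4 made up 10.9 ± 1.05% in F5 and 0.622 ± 0.138% in F1 (SD, n = 3 each). Its share was 0.469% in Anther, 0.962% in Ovary and 1.43% in Lemma. TaAGL31 made up 0.319% in F5 and 2.27% in F1, and 0.319% in Anther, 2.16% in Ovary and 0.259% in Lemma. WM27A made up 0.0205% in F5 and 0.755% in F1, and 0.643% in Ovary. The summed level itself was 453 ± 39.8 FPKM in F5 and 726 ± 49.4 FPKM in F1, so the share of WM4 was larger where the total was smaller.

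**Figure D3:**
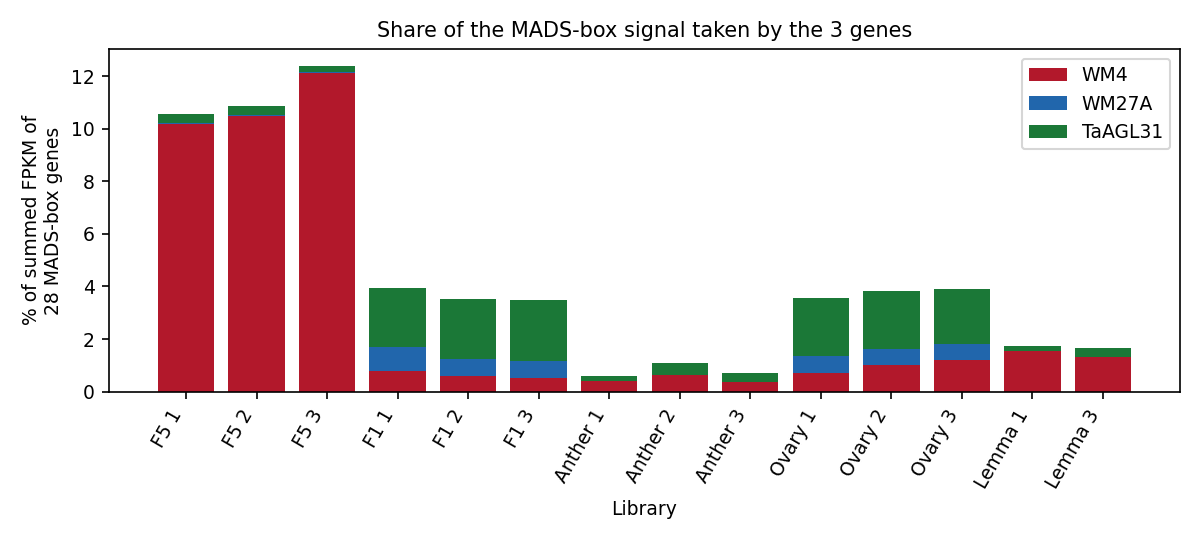
Percent of the summed FPKM of 28 MADS-box genes (vertical axis, from 0) taken by WM4, WM27A and TaAGL31, stacked, in each of the 14 libraries. WM4 took 10.2% to 12.1% in the F5 libraries and at most 1.54% in any other library, and TaAGL31 took the largest share of the 3 in F1 and Ovary.

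Even so, other genes of the 28 led every group. This ranking leaves out MADS-type genes that were not found by name or description. In F5 the highest means were those of Vrn-A1 (TraesCS5A02G391700, also WM6), a promoter of flowering, at 72.3 ± 11.1 FPKM, WM20 (TraesCS7D02G120500) at 66.6 ± 8.25 FPKM and TraesCS4D02G243700 at 50.9 ± 6.70 FPKM, just above WM4. Vrn-A1 had 57.2 ± 2.79 FPKM in F1, and its related gene Vrn-B1 (TraesCS5B02G396600) had 50.8 ± 7.81 FPKM in F5 and 34.3 ± 1.81 FPKM in F1; neither reached 2-fold. In F1 the leaders were TraesCS5A02G286800, TraesCS7B02G158600 and TraesCS5D02G294500, at 77.7 to 81.3 FPKM, and the same 3 genes led in Ovary at 183 to 192 FPKM. TaAGL31 had 27.98 FPKM in Ovary beside them. The APETALA3-like gene, TraesCS7B02G158600 and WM13 led in Anther at 101 to 144 FPKM, where all 3 genes described here were at or below 5.32 FPKM. Vrn-A1, WM20 and Vrn-B1 led in Lemma, at 101, 89.1 and 52.6 FPKM.

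WM4 had its highest mean in F5, and of the 25 other MADS-box genes 4 (16.0%) did so by FPKM and by TMM-scaled CPM. Over the 49980 genes with a mean of at least 1 FPKM these shares were 18.0% by FPKM and 20.1% by CPM. The 25 had no such limit, and the 4 by FPKM include WM30 (TraesCS2A02G337900) and the type I gene, at 0.218 and 0.735 FPKM in F5. WM27A and TaAGL31 were highest in Ovary, as were 10 of the 25 (40.0%) by FPKM and 8 (32.0%) by CPM. The all-gene shares were 34.9% by FPKM and 24.8% by CPM.

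**Figure D4:**
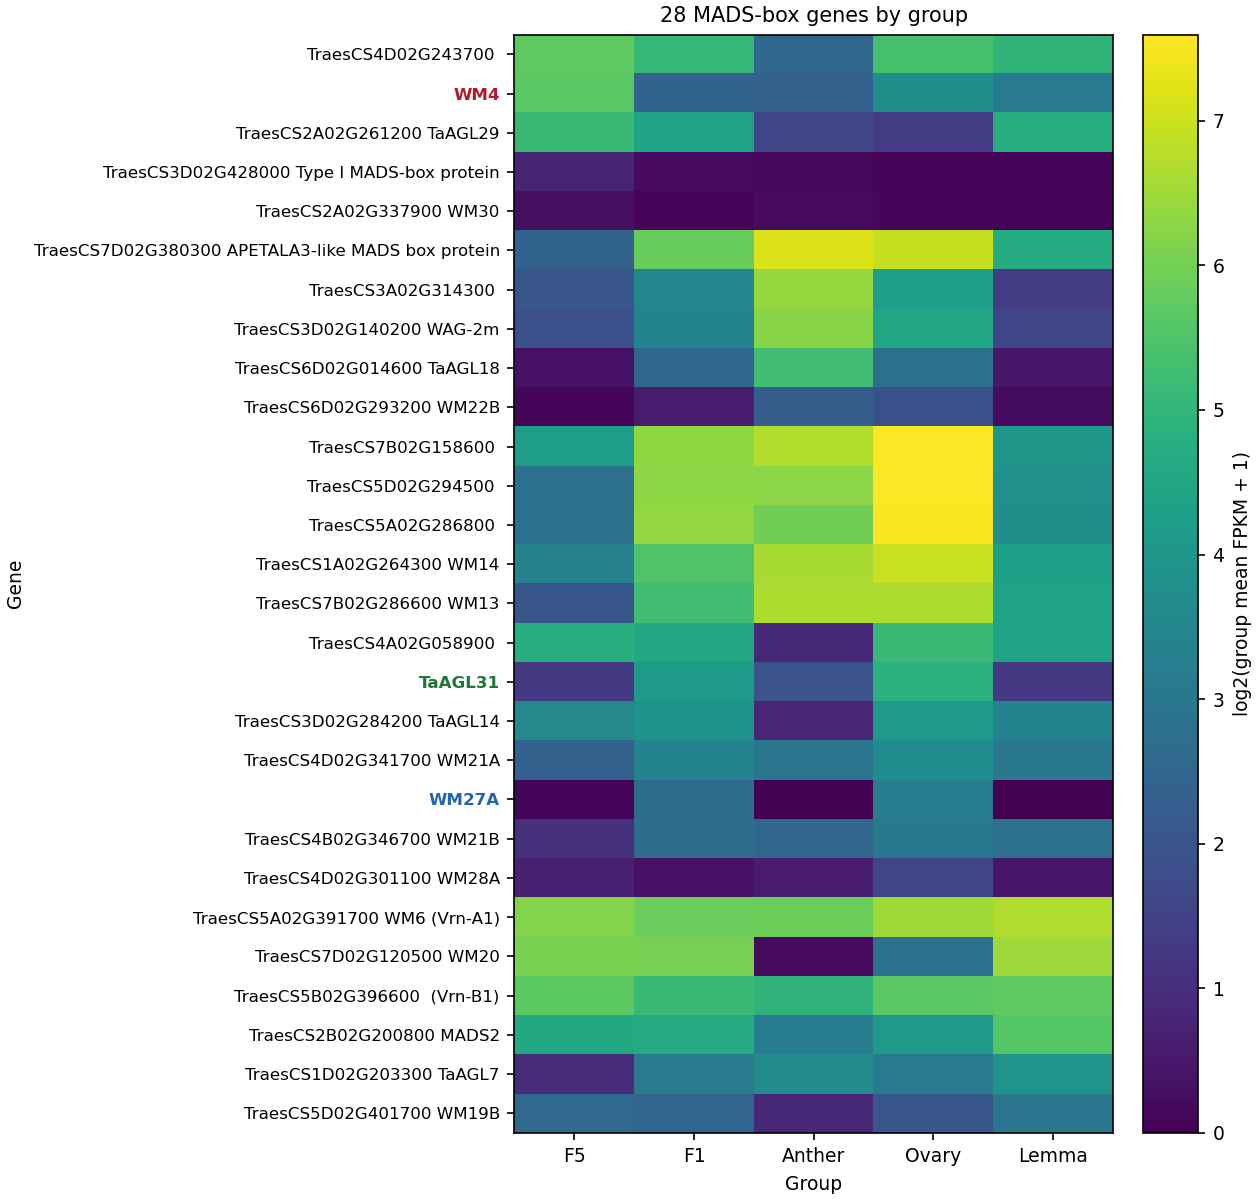
Mean level of 28 MADS-box genes in the 5 groups, as log2(group mean FPKM + 1) by colour, with genes (rows) ordered by the group in which their mean is highest. WM4 stands among the 5 genes highest in F5, and WM27A and TaAGL31 among the 12 highest in Ovary.

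Between Anther and Lemma, 10 of the 25 other MADS-box genes were called higher in Anther, 9 lower and 6 neither, when 51.9% of 76348 genes were called (25.2% higher, 26.7% lower). Neither WM27A, at 0 in both organs, nor TaAGL31, whose libraries overlapped, nor WM4, at 0.564 of the Lemma level, stood near the genes that rose most. TaAGL18 had 37.6 ± 2.05 FPKM in Anther and 0.381 ± 0.0829 FPKM in Lemma, a log2 fold change of 6.38 ± 0.21 (edgeR adjusted p = 3.7e-07). TraesCS3A02G314300, WAG-2m (TraesCS3D02G140200, of a family named for the floral organ gene AGAMOUS), WM22B (TraesCS6D02G293200) and TraesCS7B02G158600 rose by 2.52 to 5.55 on the log2 scale. WM20 fell furthest, with 0.156 ± 0.114 FPKM in Anther and 89.1 ± 5.19 FPKM in Lemma (log2 fold change -9.30 ± 0.56, edgeR adjusted p = 5.3e-06). TraesCS4A02G058900, TaAGL14 (TraesCS3D02G284200), TaAGL29 and WM19B (TraesCS5D02G401700) also fell, with log2 fold changes from -4.87 to -3.36.

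Between Ovary and Lemma, 11 of the 25 were called higher in Ovary, 5 lower and 9 neither, when 42.7% of all genes tested were called (20.4% higher, 22.4% lower). Among the 25 the largest rise was that of TaAGL18, at 5.90 ± 0.519 FPKM in Ovary and 0.381 ± 0.0829 FPKM in Lemma (log2 fold change 3.33 ± 0.18, edgeR adjusted p = 3.6e-06). TaAGL31, at a log2 ratio of 3.77 on TMM-scaled CPM, and WM27A, at 0 counts in Lemma, lay above that rise. The CPM was scaled over all 14 libraries, and the test over the organ libraries alone. Both genes were chosen by their levels in these libraries, and genes of a wider set given below rose further than TaAGL31. WM22B, TraesCS5A02G286800, TraesCS5D02G294500 and TraesCS7B02G158600 rose by 3.03 to 3.26 on the log2 scale. TaAGL29, WM20, MADS2 (TraesCS2B02G200800), WM19B and TaAGL7 (TraesCS1D02G203300) fell, with log2 fold changes from -4.69 to -1.47.

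Between Anther and Ovary, 3 of the 25 were called higher in Anther, 7 lower and 15 neither, when 43.5% of all genes tested were called (21.9% higher, 21.7% lower). The 3 that rose were TaAGL18, TraesCS3A02G314300 and WAG-2m, with log2 fold changes of 3.05, 2.55 and 2.17. TraesCS4A02G058900, the gene that fell furthest, had 0.819 ± 0.0325 FPKM in Anther and 34.6 ± 4.68 FPKM in Ovary (log2 fold change -5.01 ± 0.16, edgeR adjusted p = 9.2e-07). WM20, TaAGL14, TraesCS4D02G243700 and WM19B also fell. WM27A, TaAGL31 and WM4 were all lower in Anther than in Ovary, with no overlap between libraries.

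Most wheat genes in the table have no name, so MADS-type genes were also sought by ontology. All 3 genes carry the terms for sequence-specific binding to RNA polymerase II regulatory regions and for protein dimerization, and 140 other genes carry both. This wider set was added after the data were seen. In F5 against F1, 100 of the 140 were tested, and 16 were called higher and 45 lower beside the 24.1% called over all genes. Of 108 tested in the organs, 39 were called higher and 37 lower in Anther than in Lemma, 41 higher and 26 lower in Ovary than in Lemma, and 20 higher and 36 lower in Anther than in Ovary. The shares called over all genes in these comparisons were 51.9%, 42.7% and 43.5%.

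Within that set, the genes on the same chromosome group that reached r of at least 0.9 with each of the 3 genes were counted. Beside the counts that follow, 0.348% of 49979 genes with a mean of at least 1 FPKM exceeded r of 0.9 with WM4, 8.45% with WM27A and 8.19% with TaAGL31. The counts that follow had no such limit on level. A mean of 1 FPKM in any group was reached by 15 of 17 genes for WM4, 13 of 22 for WM27A and 12 of 13 for TaAGL31. Whether the genes named below are copies of the same ancestral gene is not given in the files. They were singled out by their correlation, so their values carry no test. For WM4, 4 of 17 such genes on chromosomes 4A, 4B and 4D reached r of at least 0.9 over the 14 libraries. TraesCS4A02G028100 (r = 0.978) had 43.5, 31.7 and 34.4 FPKM in F5, against 0.929, 0.815 and 1.07 FPKM in F1. TraesCS4A02G028200 (r = 0.971) had 36.2, 26.9 and 21.0 FPKM in F5, against 0.688, 0.640 and 0.355 FPKM in F1. TraesCS4D02G276100 (r = 0.953) had 53.3, 50.6 and 47.6 FPKM in F5, against 1.74, 1.76 and 1.89 FPKM in F1. All of these, and TraesCS4B02G277800 (12.7 FPKM in F5 and 0.389 FPKM in F1 on average), had a steeper F5 over F1 ratio than WM4. Their ratios ran from 28.1 to 49.99, since their F1 levels were lower than the 4.47 FPKM of WM4.

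Other group 4 genes of the set followed WM4 only in part. TraesCS4B02G245800 had the highest F5 mean among them, at 70.6 ± 8.93 FPKM in F5 and 13.8 ± 2.47 FPKM in F1, and TraesCS4B02G245700 had 35.6 ± 9.05 FPKM in F5 and 9.62 ± 0.322 FPKM in F1. TraesCS4D02G243700, which lies on chromosome 4D like WM4, had 50.9 FPKM in F5 and 32.6 FPKM in F1, and 40.8 FPKM in Ovary. Its F5 level was thus close to that of WM4, and its levels in F1 and Ovary were well above those of WM4.

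For WM27A, 2 of 22 group 1 genes reached r of at least 0.9, where 8.45% of the 49979 genes with a mean of at least 1 FPKM exceeded it. This count is near the share over all genes. TraesCS1D02G262700 (r = 0.997) had 9.02 ± 0.559 FPKM in Ovary, 0.232 ± 0.0663 FPKM in F5 and 7.11 ± 0.992 FPKM in F1, and was at 0 in both Lemma libraries. TraesCS1A02G262700 (r = 0.993) had 12.0 ± 0.508 FPKM in Ovary, 0.188 ± 0.116 FPKM in F5 and 9.61 ± 0.940 FPKM in F1. Unlike WM27A, it was detected in every Anther library, at 0.505, 0.340 and 0.205 FPKM. These genes and WM27A shared the order Ovary, F1 and a trace in F5. Another group 1 gene of the set, TraesCS1B02G214500, had a lower F5 over F1 ratio than WM27A, at 0.0158 against 0.0171. It had 0.0486 FPKM in F5 and 3.07 FPKM in F1, but followed WM27A poorly (r = 0.280).

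For TaAGL31, 2 of 13 group 5 genes reached r of at least 0.9, TraesCS5B02G115100 (r = 0.987) and TraesCS5A02G117500 (r = 0.980). They had 19.5 ± 0.984 and 23.1 ± 1.60 FPKM in Ovary, below the 27.98 FPKM of TaAGL31. Their means were 0.674 and 0.370 FPKM in F5, against 10.8 and 11.1 FPKM in F1. Of the 27 genes in the table with the term for ovule development, 3 belonged to the MADS-type set, and these were TaAGL31 and this pair. The pair thus shares an annotation with TaAGL31, which is not a measure of expression.

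**Figure D5:**
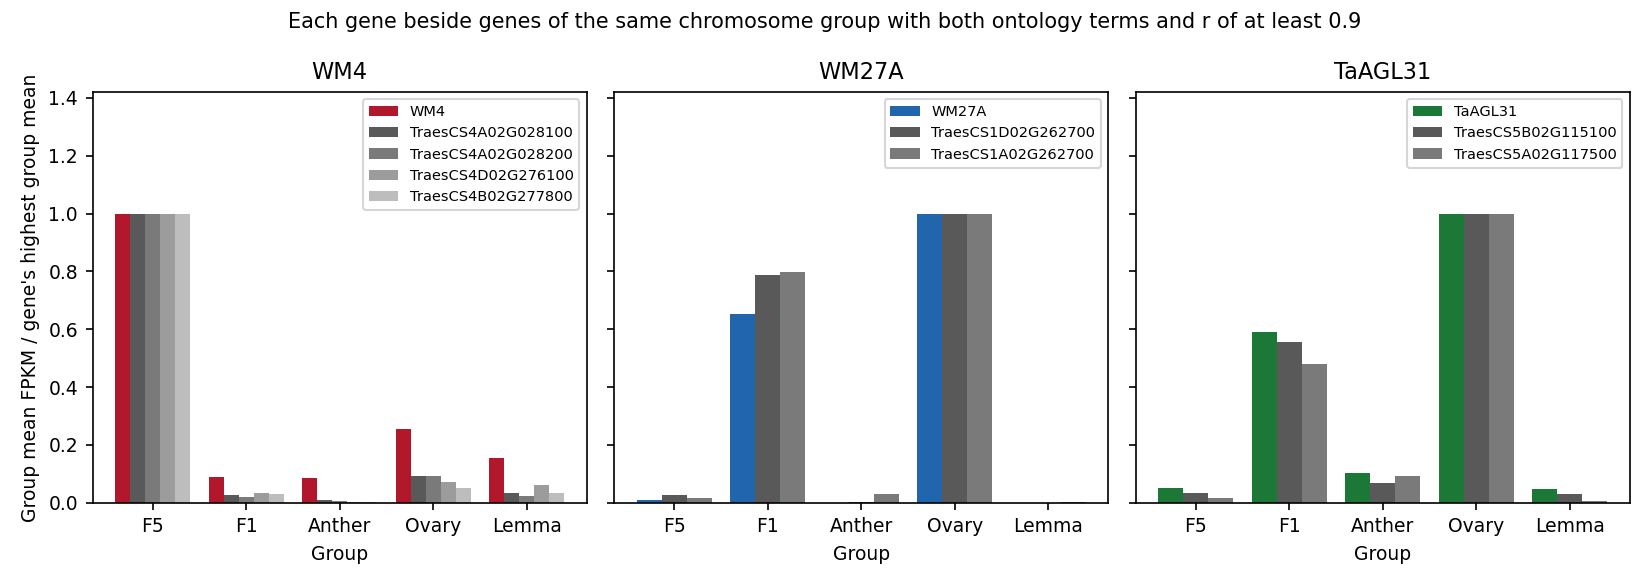
Group mean FPKM divided by the gene's own highest group mean (vertical axis, bars from 0) for WM4, WM27A and TaAGL31 (coloured) and the genes of the same chromosome group with both ontology terms and r of at least 0.9 (grey). The 4 genes beside WM4 fall further outside F5 than WM4 does, and the pairs beside WM27A and TaAGL31 peak in Ovary and come next in F1.

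Among all genes, those closest in pattern were sought over 49979 genes with a mean of at least 1 FPKM. WM4 had few close genes: 13 reached r of at least 0.95, which is 0.0260%, against 1619 (3.24%) for WM27A and 1508 (3.02%) for TaAGL31. Such correlations describe patterns over 5 groups of libraries. Which described genes came closest depended on the measure: of the 5 for TaAGL31, 0 were among the closest 5 by Spearman's rho or with log2(FPKM + 0.1), and 1 over the 5 group means. Of the 5 for WM27A, 0 were among the closest 5 by Spearman's rho, 3 with log2(FPKM + 0.1) and 1 over group means. Of the 5 for WM4, these numbers were 2 by Spearman's rho, 3 with log2(FPKM + 0.1) and 4 over group means.

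The gene closest to WM4 was TraesCS4D02G229100, which has no description (r = 0.982), at 9.95 FPKM in F5 and 2.26 FPKM in F1. The closest described gene encodes an acyl-coenzyme A oxidase (TraesCS7A02G223500, r = 0.958), an enzyme of peroxisomal fatty acid breakdown, with 15.2 FPKM in F5 and 6.52 FPKM in F1. A xyloglucan endotransglucosylase/hydrolase (TraesCS3A02G093600, r = 0.9496), which remodels the cell wall, had 7.55 FPKM in F5 and 0.407 FPKM in F1. A peroxidase (TraesCS4B02G232800, r = 0.946) had 9.82 FPKM in F5 and 0.500 FPKM in F1. A pectin acetylesterase (TraesCS3D02G538900, r = 0.946), which acts on cell wall pectin, had 15.5 FPKM in F5 and 5.40 FPKM in F1. A probable magnesium transporter (TraesCS6A02G194800, r = 0.939) differed much less, at 27.5 FPKM in F5 and 20.5 FPKM in F1. All of these had their highest group mean in F5.

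The gene closest to WM27A, TraesCS3A02G299700 (r = 0.998), has no description and had 39.4 FPKM in Ovary, 0.428 FPKM in F5 and 19.5 FPKM in F1. Defensins, small peptides known for antimicrobial action, took 2 of the 5 described places. TraesCS1D02G052900 (r = 0.997) had 181 FPKM in Ovary, 0.294 FPKM in F5 and 87.6 FPKM in F1, and TraesCS1A02G050700 (r = 0.995) had 69.0 FPKM in Ovary, 0.0539 FPKM in F5 and 37.9 FPKM in F1. The others encode a DNA polymerase epsilon subunit (TraesCS3A02G118400, r = 0.996), a pectinesterase (TraesCS2A02G412600, r = 0.996) and a carboxypeptidase (TraesCS6D02G338700, r = 0.995), with 3.23 to 8.23 FPKM in Ovary. These levels spanned a wide range, so that only the pattern was shared.

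For TaAGL31 the closest gene of all encodes Disrupted meiotic cDNA 1 protein (TraesCS5B02G131900, r = 0.993), a recombinase of meiosis. It had 7.32 FPKM in Ovary, 0.393 FPKM in F5 and 4.72 FPKM in F1. The other described places were taken by histones, the proteins around which DNA is packed: H3 (TraesCS7A02G103900 and TraesCS4A02G402000, both r = 0.991), H2A (TraesCS5D02G110600, r = 0.991) and H4 (TraesCS5B02G301800, r = 0.990). Their means ran from 27.8 to 90.2 FPKM in Ovary, from 0.196 to 0.432 FPKM in F5 and from 12.7 to 29.5 FPKM in F1. The histones were thus further apart between F1 and Ovary than TaAGL31, whose F1 mean was 0.589 times its Ovary mean.

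The genes next to the 3 on their chromosomes were examined with 5 on each side. None of the 10 beside WM4, the nearest 305432 bp away, and none of the 10 beside TaAGL31, the nearest 721612 bp away, exceeded r of 0.9. Of the 10 beside WM27A, 3 did, where 8.45% of the 49979 genes with a mean of at least 1 FPKM do. The closest in pattern, Cold shock domain protein 2 (TraesCS1B02G273100, r = 0.981), lies 110193 bp away and had 159 FPKM in Ovary, 16.9 FPKM in F5 and 87.1 FPKM in F1. The others were TraesCS1B02G273000 (r = 0.964) and TraesCS1B02G273500 (r = 0.966), and all 3 were named after their values were seen. The gene nearest to WM27A, TraesCS1B02G273400 at 36372 bp, had r of -0.77.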

How the data were processed

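Total RNA was extracted with Trizol and used for libraries where its integrity number was high, per the labels' protocols. The authors deposited, for each gene and library, a raw count and an FPKM value (fragments scaled to gene-model length and library size). The submitters' processing notes name Bowtie 0.12.2 and the mouse build mm8, which cannot hold wheat genes, so aligner, annotation and build remain not given in the sources used here. Of the deposited gene IDs, 0 matched the RefSeq gene table at hand, and no sequences were used.

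Groups were taken from the sample titles. Same-numbered libraries did not deviate together (r of deviations -0.30 to 0.11), so the numbers were not taken to pair samples. Libraries within a group differed beyond sampling noise (chi-square per degree of freedom 16.2 to 112). P-values measure only the spread between these libraries, which may be technical.

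Group levels are means and SDs of deposited FPKM. Other MADS-box genes were tested on deposited counts with edgeR 4.0.16 (R 4.3.3): TMM scaling, filterByExpr, robust quasi-likelihood fits over the whole table, two-sided. Calls needed an adjusted p (Benjamini-Hochberg) below 0.05 and a 2-fold change or more. F5 and F1 were fitted by themselves, and Anther, Ovary and Lemma in 1 fit, so that Lemma shared the spread of the others. All 3 genes were among those fitted, and their own test results are not used. Alternatives were DESeq2 1.42.0, limma 3.58.1 on log2(FPKM + 1), other size factors, no filter, a replicate block and leaving out each library. The code was tested on simulated data.

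The 3 genes and the lists were chosen with earlier results of these data known. MADS-box genes were found by the text MADS in name or description, or by a MADS-box stem in the name. The naming rule took, for each of the 3 genes, the 5 described genes and the 1 gene of any kind with the highest Pearson r of log2(FPKM + 1) over 14 libraries, up to 5 other MADS-box genes called in each direction per comparison whose higher mean reached 1 FPKM, and the 3 highest MADS-box genes per group. Marker lists by text held 90 chlorophyll a-b binding genes, 0 ovary genes and 2 pollen, anther or tapetum genes, of which 1 was at 0 in all Anther libraries; the summed level of these 2 was 7.94 to 20.5 FPKM in Anther and at most 0.123 FPKM elsewhere. The ontology lists for carpel development and pollen sperm cells were added after the data were seen.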

Additional observations from a re-analysis of the deposited data

How the results depend on the processing

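For the 3 genes, 77 recomputations of 9 log2 ratios under other pseudocounts, TMM-scaled CPM and left-out libraries gave 0 reversals, and 7 moved by more than the spread between replicates. A pseudocount of 1 FPKM gave 3.20 for WM4, -2.56 for WM27A and -2.83 for TaAGL31 in F5 over F1, and 3.604 for TaAGL31 in Ovary over Lemma; a pseudocount pulls ratios of low values towards 0 by construction. A pseudocount of 0.1 FPKM gave -4.84 for WM27A in F5 over F1. TMM-scaled CPM gave 3.74 for WM4 in F5 over F1 and 0.15 in Ovary over Lemma. Ratios of WM27A against groups at 0 could not be recomputed. The described gene closest to WM27A by Pearson's r (0.997) had a Spearman's rho of 0.892, and 0 of the 5 closest described genes were shared between these measures. Leaving out 1 library at a time gave 9 to 13 calls among the 25 other MADS-box genes in F5 against F1, 18 to 19 in Anther against Lemma, 16 to 17 in Ovary against Lemma and 10 to 12 in Anther against Ovary. For the wider set these ranges were 47 to 65, 67 to 77, 60 to 67 and 50 to 55, and for all genes 12367 to 20310, 35939 to 39845, 28557 to 32376 and 30660 to 33229. For all genes, limma on log2(FPKM + 1) called 9179 in F5 against F1, against 16958 with edgeR. It called 23895 against 39589 in Anther against Lemma and 20237 against 33222 in Anther against Ovary, and the cause was not tested. With the replicate number as a block, calls among the 25 genes were 11, 18, 16 and 10 in the same order of comparisons, and all-gene calls in F5 against F1 were 13834. The replicate numbers are not known to mark a pairing. With 2 Lemma libraries, leaving out 1 leaves a lone library that is assumed to vary like the other groups. WM27A in F5 rests on 9 to 25 counts a library, which limits the precision of its ratio.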
